A study of Mus musculus with 15 samples.

Results

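Class switch recombination replaces the Igh constant region of a B cell by joining a break in the donor switch region Sμ to a break in a downstream acceptor, here Sγ1. The breaks are initiated by AID, the cytidine deaminase that targets switch regions. A join between the upstream side of the Sμ break and the downstream side of the Sγ1 break deletes the intervening DNA and is productive. Joining the same Sμ end to the upstream side of the Sγ1 break instead inverts the intervening DNA, and no switched antibody can be made from it. SHLD1 is a subunit of shieldin, the complex that acts below 53BP1 to limit the resection of broken ends, and XLF is a core factor of classical non-homologous end joining (NHEJ). The inversional Sμ-Sγ1 junctions of SHLD1- and XLF-deficient B cells are described below, in core Sγ1 and in the DNA upstream of it.

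Junctions were mapped by CSR-HTGTS, which amplifies genomic DNA from a fixed bait in 5′Sμ and sequences the prey to which it was joined. The libraries came from C57BL/6 splenic B cells stimulated for 96 h with IL-4, LPS and dextran-coupled anti-IgD, and were labelled WT (3 libraries), Shld1-/- (2), Xlf-/- (3) or Shld1-/- Xlf-/- (2), in each case a constitutive genotype of the mouse. The study describes independent mice per genotype, whereas the labels do not name a mouse. The deposit's locus entries name engineered Igh alleles that the study's methods do not describe for these primary cells, and they were not used. Of 42200 junctions listed in the 10 libraries, 36735 lay in the Igh window, and 1795 of these (4.89%) were inversional and lay in core Sγ1 or upstream of it. They were chosen by position and strand alone: mm9 chromosome 12, a prey strand other than that of the bait, and a position from 114569000 to 114576999 for the core (1519 junctions) or from 114577000 to 114589999 for the upstream tail (276 junctions). Igh lies on the minus strand, so that higher coordinates lie upstream, toward Sμ.

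A genotype can be read for each library from its label and also from the study's own plots, where its Sγ1 junction total is printed under a genotype, and the 2 differ for 6 of 10 libraries. Libraries are named here by label and replicate number, and the genotype printed with their junction total is called the printed genotype. Printed as WT were Shld1-/- 2, WT 1 and Xlf-/- 3. Printed as Shld1-/- were Shld1-/- 3, Shld1-/- Xlf-/- 1 and WT 2. Printed as Xlf-/- were WT 3 and Xlf-/- 1, and printed as Shld1-/- Xlf-/- were Shld1-/- Xlf-/- 3 and Xlf-/- 2. In order of deposit, the labels run in blocks by genotype. The printed genotypes instead recur in the sequence WT, Shld1-/-, Xlf-/- and Shld1-/- Xlf-/-, with gaps at lists that were not used. Each test is given by label and by printed genotype. If labels are wrong, groups by label mix genotypes, so an effect that did not pass by label is not shown to be absent. Since a printed genotype was matched through the number of Sγ1 junctions, the tests over printed genotypes are not independent of that number. Depth ranged from 1159 to 8110 Igh junctions per library, with 89 to 285 of the inversional junctions described here, and the 45 library pairs shared 0 read names.

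The junction sequences show what was counted. Each is the read from bait to prey, 5′ to 3′, with the bait on the minus and the prey on the plus strand of chromosome 12, and the capitals mark the microhomology (MH), the bases that match both sides of the join. A direct join has no MH, and there the capitals mark the last bait base and the first prey base. Shown are junctions with the longest MHs equal to the bait, in the core or upstream, and a direct join for contrast, from libraries of each printed genotype. The prey position in mm9 stands before each sequence.
WT 2 (printed Shld1-/-), core, 114576393, MH of 13 bp: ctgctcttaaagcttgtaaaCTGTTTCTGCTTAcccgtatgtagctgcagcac
Shld1-/- Xlf-/- 1 (printed Shld1-/-), upstream, 114577492, MH of 12 bp: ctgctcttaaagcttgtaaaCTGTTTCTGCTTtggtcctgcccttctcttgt
Shld1-/- 2 (printed WT), core, 114573673, MH of 9 bp: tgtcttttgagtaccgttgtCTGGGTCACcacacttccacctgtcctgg
Xlf-/- 1 (printed Xlf-/-), core, 114574210, MH of 9 bp: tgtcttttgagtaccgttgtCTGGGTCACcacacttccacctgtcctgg
Shld1-/- Xlf-/- 3 (printed Shld1-/- Xlf-/-), upstream, 114578117, MH of 9 bp: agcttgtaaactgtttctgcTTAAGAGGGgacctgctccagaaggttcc
Xlf-/- 1 (printed Xlf-/-), upstream, 114579085, MH of 8 bp: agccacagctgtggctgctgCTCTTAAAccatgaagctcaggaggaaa
Xlf-/- 2 (printed Shld1-/- Xlf-/-), core, 114569733, MH of 8 bp: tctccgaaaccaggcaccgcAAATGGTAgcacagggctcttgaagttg
Shld1-/- 2 (printed WT), upstream, 114577529, MH of 6 bp: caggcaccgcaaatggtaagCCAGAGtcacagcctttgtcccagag
Shld1-/- 2 (printed WT), core, 114576945, direct join: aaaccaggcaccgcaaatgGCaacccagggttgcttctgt
Shld1-/- 3 (printed Shld1-/-), core, 114576858, direct join: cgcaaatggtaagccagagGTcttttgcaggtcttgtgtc
Xlf-/- 1 (printed Xlf-/-), core, 114576966, direct join: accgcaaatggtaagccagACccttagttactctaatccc
Xlf-/- 2 (printed Shld1-/- Xlf-/-), core, 114576838, direct join: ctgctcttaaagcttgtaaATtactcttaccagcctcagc
The 13-bp and 12-bp MHs start at the same bases of the bait and differ in their prey, 1 in the last kb of the core and 1 in the first kb upstream. The pair of 9-bp junctions at 114573673 and 114574210 came from different libraries and read the same over all 49 bases, although the prey was placed at different positions of the Sγ1 repeats.

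The deposited positions are mm9, and the reads were set against GRCm38 by sequence only. Of the 276 upstream prey sequences, 195 matched GRCm38 at 1 place over 50 bases, between 113338799 and 113351746 on chromosome 12. Of the 1519 core prey sequences, 651 matched at 1 place, between 113330799 and 113338778, and 130 matched at more than 1. None of the single matches lay in an annotated gene. They fell between Ighg1 (113325240 to 113330523, minus strand), which holds the γ1 constant exons, and Ighg3 (113356224 to 113361232, minus strand), which holds the γ3 exons.

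Inversional joins were a small share of core Sγ1 junctions in libraries printed as WT and a large share in those printed as lacking SHLD1. In the libraries printed as WT, 4.0% (205 of 5127, Shld1-/- 2), 4.33% (101 of 2331, WT 1) and 4.95% (237 of 4791, Xlf-/- 3) of core junctions were inversional. In those printed as Shld1-/-, the share was 30.1% (189 of 627, Shld1-/- 3), 29.8% (176 of 591, Shld1-/- Xlf-/- 1) and 18.7% (79 of 423, WT 2). WT 2 lay below the other two, and its 95% Wilson interval of 15.3% to 22.7% did not reach theirs, which began at 26.7% and 26.2%. The libraries printed as Xlf-/- were intermediate, at 8.42% (80 of 950, WT 3) and 14.7% (256 of 1747, Xlf-/- 1). The highest values were those of the libraries printed as Shld1-/- Xlf-/-, 41.0% (77 of 188, Shld1-/- Xlf-/- 3) and 30.7% (119 of 387, Xlf-/- 2), of which the second lay within the intervals of 2 libraries printed as Shld1-/-. By printed genotype, the values of the groups with SHLD1 and those without it did not overlap. The interval of Xlf-/- 1 (printed Xlf-/-), 13.1% to 16.4%, nevertheless reached that of WT 2. All intervals cover counting error only, since the junctions carry no molecular identifiers.

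By label, the same values mixed. The mean share was 10.5% ± 7.39 (SD, n = 3) in libraries labelled WT, 17.1% ± 18.5 (n = 2) in Shld1-/-, 16.8% ± 13 (n = 3) in Xlf-/- and 35.4% ± 7.90 (n = 2) in Shld1-/- Xlf-/-. The SHLD1 effect, the mean difference between SHLD1-deficient and SHLD1-proficient libraries within each XLF genotype, was 12.6 percentage points by label and did not pass (exact permutation test, two-sided, p = 0.16, adjusted p = 0.6 over 12 tests). The XLF effect by label was 12.3 points (exact permutation test, p = 0.2, adjusted p = 0.6). Shld1-/- 2 and Shld1-/- 3, the libraries labelled Shld1-/-, weighed on both values. Without Shld1-/- 3 the SHLD1 effect was 6.05 points and the XLF effect 18.8, and without Shld1-/- 2 they were 19.1 and 5.77. By printed genotype, the SHLD1 effect was 23.0 points (exact permutation test, p = 0.0167, the smallest the design allows, adjusted p = 0.0333) and the XLF effect 8.38 points (p = 0.01, also the smallest, adjusted p = 0.0333). Over the 4 libraries for which label and printed genotype are the same, 1 per genotype and so with no test, the effects were 26.1 and 10.6 points.

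**Figure D1:**
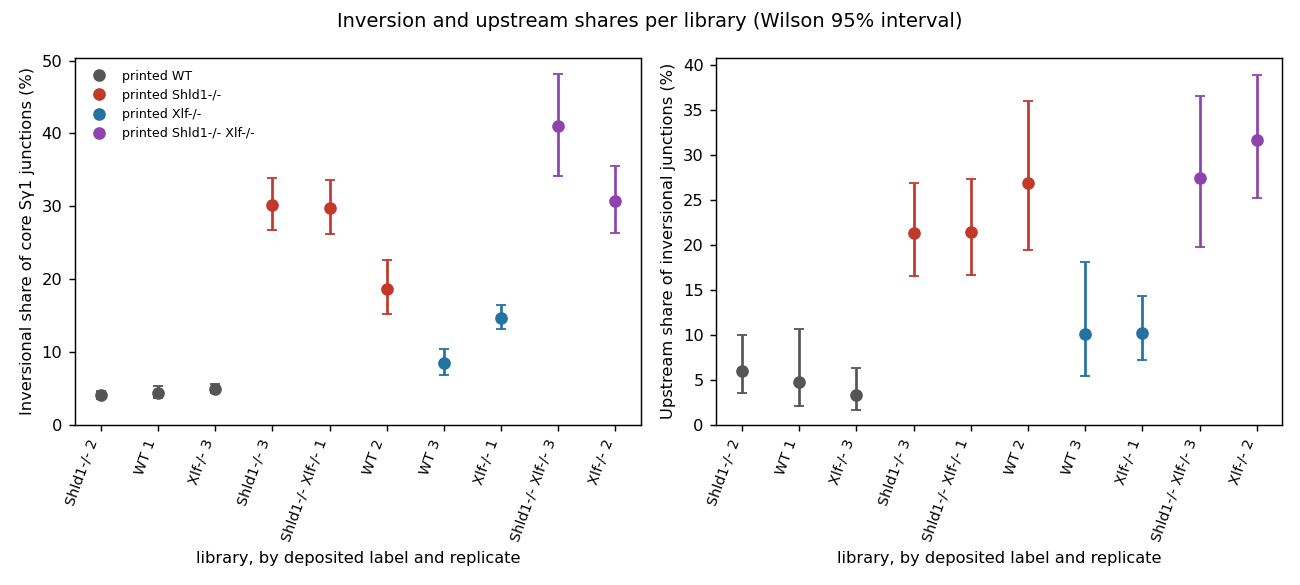
Each point is 1 library, named on the x axis by label and replicate and coloured by printed genotype, with its Wilson 95% interval. The left panel gives the inversional percentage of core Sγ1 junctions (4.0% to 41.0%). The right panel gives the percentage of inversional junctions that lay upstream of the core (3.27% to 31.6%). In both, the points of libraries printed as lacking SHLD1 lie above all others, although some intervals overlap.

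Per 100 Igh junctions, the libraries differed less. There were 2.58 to 3.25 inversional Sγ1 junctions per 100 Igh junctions in libraries printed as WT, 5.09 to 8.85 in those printed as Shld1-/-, 4.08 and 7.74 in those printed as Xlf-/-, and 9.15 and 7.18 in those printed as Shld1-/- Xlf-/-. The libraries printed as Shld1-/- and Xlf-/- overlapped on this scale. The SHLD1 effect was 3.42 by printed genotype (exact permutation test, adjusted p = 0.05, which does not pass a threshold of under 0.05) and 2.26 by label (adjusted p = 0.6). The XLF effect was 1.90 by printed genotype (exact permutation test, adjusted p = 0.168) and 2.81 by label (adjusted p = 0.6). The core share thus has a moving denominator, which includes the deletional junctions of core Sγ1. These were 4922 of 8110, 2230 of 4109 and 4554 of 7533 Igh junctions in the libraries printed as WT. They were 111 of 1159 and 268 of 2424 in those printed as Shld1-/- Xlf-/-.

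Within core Sγ1, the inversional junctions, as placed in the deposit, gathered in 2 places. Rows that the pipeline flagged for mapping quality were kept. They were 14.9% to 43.7% of a library's inversional junctions and all lay in the core. No bin, here or below, was counted again without them. The bin from 114574000 to 114574999 held the most in 9 of 10 libraries, with a mean of 25.1% of a library's inversional junctions (range 14.8% to 40.4%). It held 29.8% to 40.4% in libraries printed as WT and 15.5% and 17.0% in those printed as Shld1-/- Xlf-/-. The exception was WT 2, in which the last kb of the core, 114576000 to 114576999, held the most, 21 of 108. That last kb had a mean of 16.7%, and the bin between them, 114575000 to 114575999, a mean of 11.9%, so that the profile dipped before the core edge. The bin of the core with the fewest was the one farthest from Sμ, 114569000 to 114569999, with a mean of 2.11% and members in 8 of 10 libraries.

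**Figure D2:**
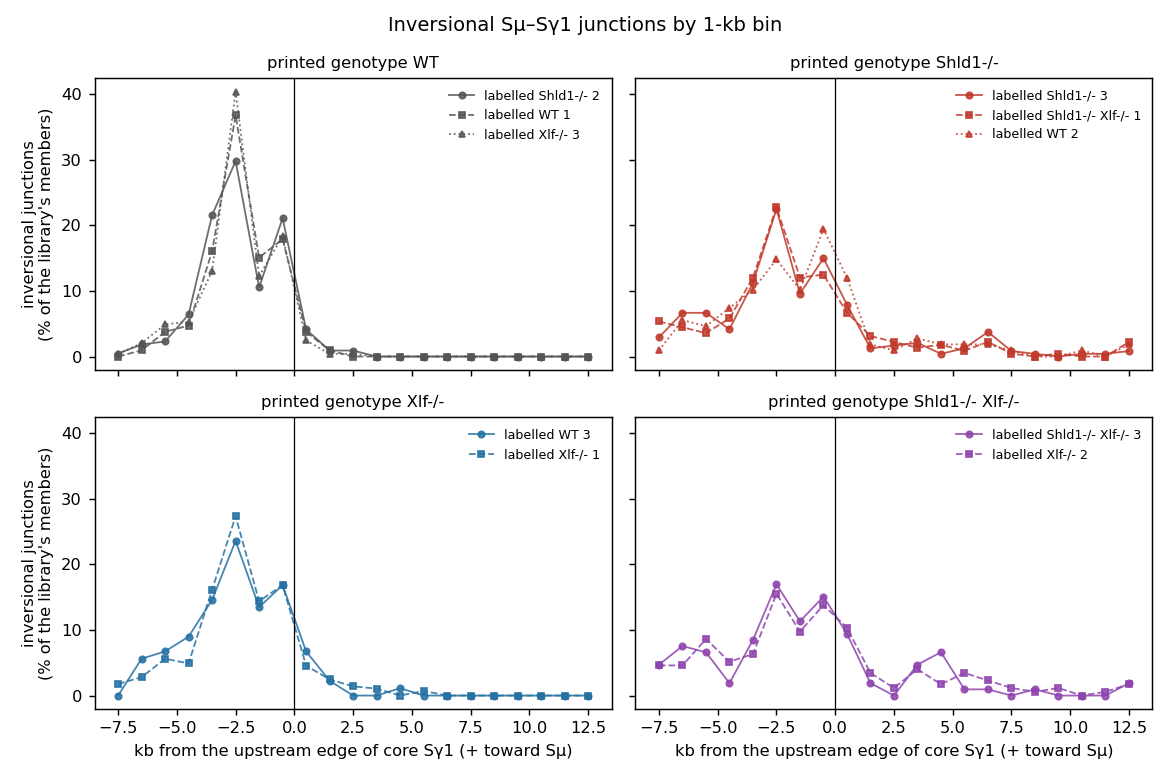
Each line is 1 library and gives the percentage of its inversional junctions in each 1-kb bin, against distance in kb from the upstream edge of core Sγ1 (vertical line, positive toward Sμ), with 1 panel per printed genotype. The bin centred 2.5 kb below the edge is highest in every library but WT 2, and beyond 5 kb upstream the libraries printed as WT are at 0.

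Deletional junctions were spread differently over the same 8 kb. The last kb of the core held 15.9% to 26.6% of core inversional junctions and 2.35% to 6.02% of core deletional junctions, so that the ranges of the 10 libraries did not overlap. The median inversional junction lay 2.31 to 2.67 kb below the upstream edge and the median deletional junction 3.31 to 4.20 kb below it. In each of the 10 libraries the inversional median was the nearer to Sμ, by 0.716 to 1.57 kb. This shift was noticed in the values and is given with no test, and it was not recomputed without rows flagged for mapping quality. It was of like size in libraries printed as WT (0.805, 1.05 and 0.897 kb) and in those printed as Shld1-/- (1.18, 0.716 and 1.09 kb).

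**Figure D3:**
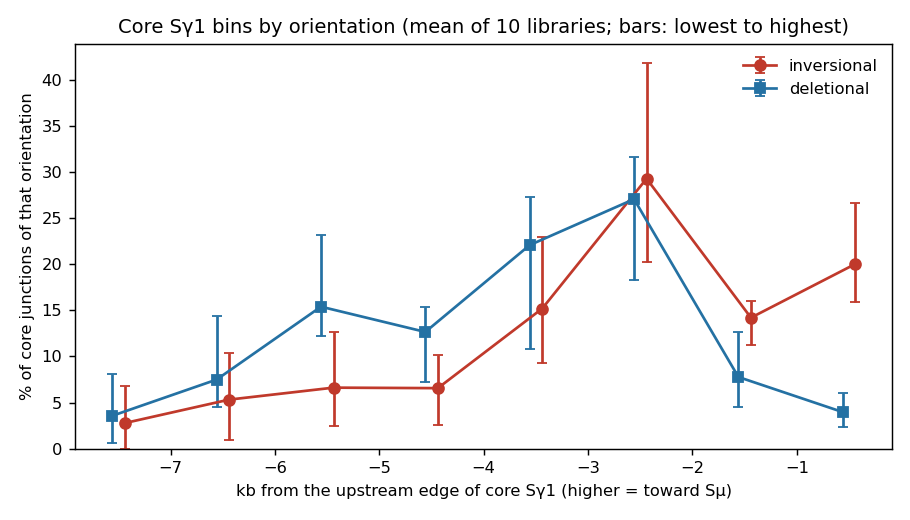
Percentage of core Sγ1 junctions of each orientation in each 1-kb bin, against distance in kb from the upstream edge of the core. Points are means of 10 libraries and bars run from the lowest to the highest library, and in the bin next to the edge the inversional range (15.9% to 26.6%) lies above the deletional range (2.35% to 6.02%).

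The share of junctions that were inversional was highest, among the 8 bins of the core, in the bin next to the upstream edge in each of the 10 libraries. In libraries printed as WT it was 0% to 1.47% in the bin farthest from Sμ, 4.68% to 6.75% in the bin with the most inversional junctions and 5.97% to 9.77% in the next. In those printed as Shld1-/- Xlf-/- it was 33.3% and 35.7%, 35.5% and 39.1%, and 41.5% and 46.2% in the same bins. In the last kb of the core, 17.9% to 24.7% of junctions were inversional in libraries printed as WT, 30.6% and 57.8% in Xlf-/-, 52.8% to 60% in Shld1-/-, and 68.6% and 80.0% in Shld1-/- Xlf-/-. The 80.0%, in Shld1-/- Xlf-/- 3, rests on 16 inversional and 4 deletional junctions. Upstream of the core, inversional joins were 38.1% to 80.6% of junctions in single libraries. The share was 38.1% (8 of 21), 50% (5 of 10) and 56.5% (13 of 23) in libraries printed as WT. It was 45% and 49.2% in Xlf-/-, 59.3% to 80.6% in Shld1-/-, and 78.4% and 71.4% in Shld1-/- Xlf-/-. The Wilson interval of Shld1-/- 2 (printed WT), 36.8% to 74.4%, overlapped those of all libraries printed as Shld1-/-, which began at 48.7%, 55.2% and 65.0%.

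Upstream of the core, inversional junctions mark ends that lie outside the core limits, toward Sμ, on the side opposite to deletional junctions downstream of it. The core limits came from the study's plots, and where the Sγ1 repeats end was not examined. The tail held 13 (Shld1-/- 2), 5 (WT 1) and 8 (Xlf-/- 3) junctions in libraries printed as WT, which is 5.96%, 4.72% and 3.27% of their inversional junctions. It held 51 of 240 (21.3%, Shld1-/- 3), 48 of 224 (21.4%, Shld1-/- Xlf-/- 1) and 29 of 108 (26.9%, WT 2) in those printed as Shld1-/-. In the libraries printed as Xlf-/-, the tail share was 10.1% (9 of 89, WT 3) and 10.2% (29 of 285, Xlf-/- 1), and in those printed as Shld1-/- Xlf-/- it was 27.4% (29 of 106, Shld1-/- Xlf-/- 3) and 31.6% (55 of 174, Xlf-/- 2). The 4 printed genotypes did not overlap in this share, but their intervals did. That of WT 3 (printed Xlf-/-), 5.41% to 18.1%, reached those of all 3 libraries printed as WT and of Shld1-/- 3 and Shld1-/- Xlf-/- 1, which began at 16.5% and 16.6%, and the intervals of libraries printed as Shld1-/- and as Shld1-/- Xlf-/- also overlapped.

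By label, the upstream share was 13.9% ± 11.5 (SD, n = 3) in WT, 13.6% ± 10.8 (n = 2) in Shld1-/-, 15.0% ± 14.8 (n = 3) in Xlf-/- and 24.4% ± 4.19 (n = 2) in Shld1-/- Xlf-/-. Neither the SHLD1 effect of 4.54 points nor the XLF effect of 5.95 points passed (exact permutation test, adjusted p = 0.795 and 0.669). By printed genotype, the SHLD1 effect was 18.9 points (exact permutation test, p = 0.0167, adjusted p = 0.0333) and the XLF effect 5.90 points (p = 0.02, adjusted p = 0.0343). In the same exact permutation test, the XLF effect did not pass with the core edge moved 1 kb lower (adjusted p = 0.204) or without rows flagged as duplicates or for mapping quality (adjusted p = 0.05 in each). The pipeline's mapping-quality flag was on 14.9% to 43.7% of a library's inversional junctions and its duplicate flag on 5.17% to 12.7%, but no junction of the tail carried either.

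The tail was longer as well as fuller in libraries printed as lacking SHLD1. Its first kb, 114577000 to 114577999, held a mean of 6.81% of a library's inversional junctions, the second kb 1.85%, and both had members in all 10 libraries, while no other bin of the tail had members in more than 7. Of the 26 tail junctions in libraries printed as WT, 19 lay in the first kb and none more than 5 kb from the core, the farthest at 2620 bp. Of the 38 in those printed as Xlf-/-, 19 lay in the first kb and 2 beyond 5 kb. In the libraries printed as Shld1-/-, 47 of 128 lay in the first kb and 41 beyond 5 kb, and in those printed as Shld1-/- Xlf-/- 28 of 84 and 24. The median tail junction lay 354 to 431 bp from the core in libraries printed as WT, 692 and 1219 bp in Xlf-/-, 1649 to 2758 bp in Shld1-/-, and 3705 and 3127 bp in Shld1-/- Xlf-/-. In each of the 5 libraries printed as lacking SHLD1 the tail went on to the outer limit of the window, with a farthest junction at 12421 to 12957 bp. The outermost bin, 114589000 to 114589999, held 14 junctions, more than any of the 5 bins before it, and all came from those 5 libraries. It also held 9 deletional junctions, again more than any of the 5 bins before it, so that the rise was not particular to inversional junctions.

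The inversional tail upstream and the deletional tail downstream were set side by side over 7 kb on each side. In libraries printed as WT, the inversional tail share was 3.27% to 5.96% and the deletional tail share 0.402% to 0.586%. In those printed as Xlf-/-, it was 10.1% and 10.2% against 4.29% and 6.64%. The order was turned in the libraries printed as Shld1-/- Xlf-/-, with 25.2% and 27.9% against 38.7% and 34.2%, and in 2 of 3 libraries printed as Shld1-/-, with 18.9% in each against 27.0% and 24.3%. In WT 2, the third, the inversional share was higher by 4.6 points. Over all 10 libraries the difference was -0.682 points ± 6.93 (SD), with 6 libraries higher and 4 lower, and did not pass (exact sign-flip permutation test, p = 0.760, adjusted p = 0.760). The comparison rests on the core edge. With the edge 1 kb higher it was -7.22 points (exact sign-flip permutation test, adjusted p = 0.0830), and with the edge 1 kb lower it was 15.0 points (exact sign-flip permutation test, adjusted p = 0.00977), since that kb holds many inversional and few deletional junctions.

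Classical NHEJ gives direct joins and joins with short MHs, and long MHs are the usual mark of alternative end joining. Grouped by printed genotype, libraries lacking SHLD1 had fewer direct and more long-MH inversional junctions, and those lacking XLF had fewer direct ones. Deletional core junctions differed in the same directions, as given below, so that this was not particular to inversional junctions. Of the inversional junctions without an insertion, 34.0% (64 of 188, Shld1-/- 2), 22.5% (20 of 89, WT 1) and 30% (63 of 210, Xlf-/- 3) were direct in libraries printed as WT. In those printed as Shld1-/-, 9.01% (20 of 222, Shld1-/- 3), 7.45% (14 of 188, Shld1-/- Xlf-/- 1) and 7.37% (7 of 95, WT 2) were direct. The share was 15.8% (12 of 76, WT 3) and 8.03% (20 of 249, Xlf-/- 1) in the libraries printed as Xlf-/-, of which the second lay among those printed as Shld1-/-. It was lowest in those printed as Shld1-/- Xlf-/-, 5.38% (5 of 93, Shld1-/- Xlf-/- 3) and 3.82% (6 of 157, Xlf-/- 2).

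The SHLD1 effect on direct joins was -14.1 points and the XLF effect -10.1 points by printed genotype (exact permutation test, adjusted p = 0.0333 for each). By label they were -0.612 and -8.19 points and did not pass (exact permutation test, adjusted p = 0.94 and 0.669), with means of 15.2% ± 7.57 (SD, n = 3) in WT, 21.5% ± 17.7 (n = 2) in Shld1-/-, 14.0% ± 14.1 (n = 3) in Xlf-/- and 6.41% ± 1.46 (n = 2) in Shld1-/- Xlf-/-.

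MHs of more than 3 bp made up 16.5%, 13.5% and 14.3% of junctions in libraries printed as WT (Shld1-/- 2, WT 1, Xlf-/- 3) and 36.0%, 28.2% and 38.9% in those printed as Shld1-/- (Shld1-/- 3, Shld1-/- Xlf-/- 1, WT 2). They made up 25.0% and 18.5% in those printed as Xlf-/- (WT 3, Xlf-/- 1) and 39.8% and 31.2% in those printed as Shld1-/- Xlf-/- (Shld1-/- Xlf-/- 3, Xlf-/- 2). The libraries printed as Shld1-/- and as Shld1-/- Xlf-/- overlapped. The SHLD1 effect was 16.7 points by printed genotype (exact permutation test, adjusted p = 0.0333) and 6.56 by label (adjusted p = 0.669). The XLF effect was 4.05 points by printed genotype (exact permutation test, adjusted p = 0.229) and 1.62 by label (adjusted p = 0.94), and passed in neither. Counting MHs of more than 5 bp instead, the SHLD1 effect by printed genotype was 3.25 points and did not pass (exact permutation test, adjusted p = 0.1), and the XLF effect was -1.05 points.

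The most frequent class was 0 or 1 bp in the libraries printed as WT, 2 or 3 bp in those printed as lacking SHLD1, and 1 bp (WT 3) and 3 bp (Xlf-/- 1) in those printed as Xlf-/-. Mean MH length was 1.66 to 1.99 bp in libraries printed as WT, 2.37 and 2.55 bp in Xlf-/-, and 2.71 to 3.22 bp in those lacking SHLD1. Insertions were found in 7.5% to 16.1% of inversional junctions, and neither effect on them passed by label or by printed genotype (exact permutation test, adjusted p of 0.907 and 0.92, and of 0.156 and 0.6, for SHLD1 and XLF).

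**Figure D4:**
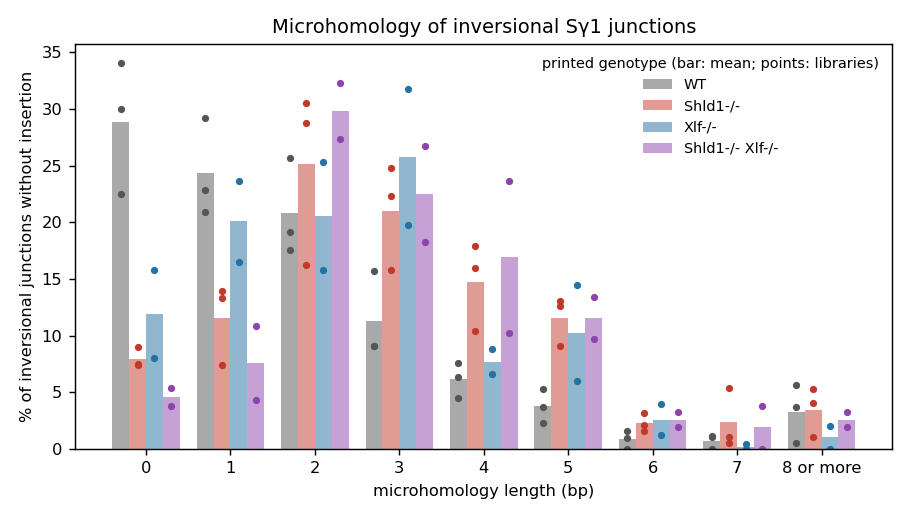
Percentage of inversional Sγ1 junctions without an insertion at each MH length in bp, with bars for the mean of the libraries of each printed genotype and points for single libraries. At 0 bp the libraries printed as WT lie between 22.5% and 34.0% and all others between 3.82% and 15.8%.

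In the core, inversional junctions held fewer direct joins than deletional junctions of the same library. The difference was -5.71 points ± 5.56 (SD), lower in 9 of 10 libraries (exact sign-flip permutation test, two-sided, p = 0.00977, adjusted p = 0.0488 over 5 tests). It was -12.3, -9.51 and -15.7 points in the libraries printed as Shld1-/- (Shld1-/- 3, Shld1-/- Xlf-/- 1, WT 2), and 2.65, -7.13 and -0.556 in those printed as WT (Shld1-/- 2, WT 1, Xlf-/- 3). The call was lost, with the direction kept, in each of 4 alternatives (exact sign-flip permutation test, adjusted p = 0.0586 to 0.0879) and when any of 9 libraries was left out. Long MHs differed by 1.22 points ± 9.71 (SD) between the orientations, higher among inversional junctions in 7 of 10 libraries (exact sign-flip permutation test, adjusted p = 0.760).

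**Figure D5:**
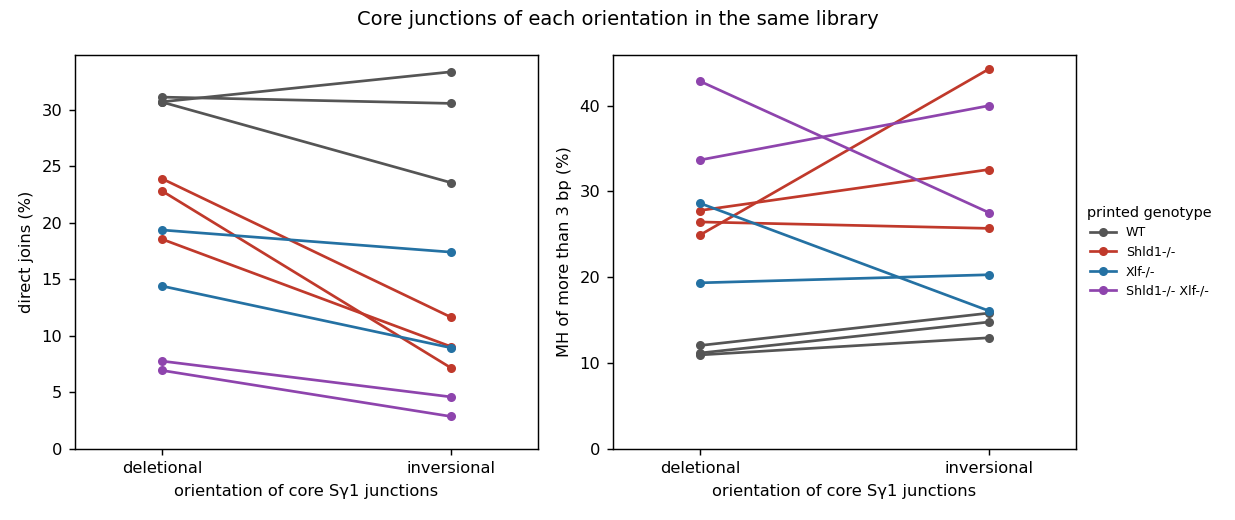
Percentage of direct joins (left) and of MHs of more than 3 bp (right) among core Sγ1 junctions without an insertion, deletional and inversional, with 1 line per library coloured by printed genotype. Direct joins are lower among inversional junctions in 9 of 10 libraries, whereas long MHs are higher in 7 and lower in 3.

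Upstream junctions and core junctions were compared in the same libraries. Long MHs were 10.1 points more frequent upstream (SD 19.9, higher in 7 of 10 libraries), and direct joins 6.38 points less frequent (SD 11.7, lower in 7 of 10), and neither passed (exact sign-flip permutation test, adjusted p = 0.225 for each). With the core edge 1 kb lower, the difference in long MHs was 5.29 points and passed (exact sign-flip permutation test, adjusted p = 0.0195). Without WT 3, where 5 of 7 upstream junctions had a long MH, it was 5.52 points. The upstream shares of single libraries rest on as few as 4 junctions. The largest tails, those of Shld1-/- 3 and Xlf-/- 2, had long MHs in 24 of 50 and 19 of 48 junctions and direct joins in 0 of 50, which allows a share of up to 6.0% (3 of 50), and in 1 of 48.

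The bases of the MH differed between orientations in the core. Among MHs of 1 bp, C made up 50% (115 of 230) of inversional and 20.1% (680 of 3375) of deletional junctions, and G 17.4% (40 of 230) and 45.4% (1532 of 3375). C was more frequent, and G less frequent, among inversional than deletional junctions in 10 of 10 libraries, in which 2 to 43 inversional junctions had such an MH. The most frequent 3-bp MH of inversional junctions, CTG, was 25.8% of them and 3.28% of deletional ones, and CTGT was 17.3% against 0.669% of 4-bp MHs. CCACA was the MH of 17 of 98 inversional and 0 of 440 deletional junctions with 5 bp. AGCT, a preferred motif of AID that reads the same on both strands, was 7.87% against 8.43% of 4-bp MHs. Inversional prey is read from the strand opposite to that of deletional prey, so that base composition and orientation cannot be told apart here. These comparisons were chosen after the values were seen and carry no test.

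Most MHs matched the bait at every base. Of 1266 inversional junctions with an MH that could be set against the bait, 1237 (97.7%) did, but only 25 of 38 did where the MH was 8 bp or longer. At 114576393, an MH of 13 bp was found in WT 2 without a difference, as printed above, and in Shld1-/- 3 with T6C, which gives the bait's base, the position counted from 1 at the 5′ end of the MH, and the base of the read. At 114576848, an MH of 11 bp carried A6T in Shld1-/- Xlf-/- 3 and in Xlf-/- 1. Such junctions are listed with a longer MH than the run of identical bases.

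AGCT was looked for in the first 50 prey bases of each junction whose read was that long. It was in 65.5% (838 of 1280) of inversional core prey, with 51.6% to 75.5% in single libraries, and in 65.0% (8913 of 13717) of deletional core prey. It was in 21.3% (53 of 249) of upstream inversional prey, with 7.69% to 33.3% in single libraries, and in 22.9% (508 of 2222) of prey on other chromosomes. In each library the upstream share was below the core share. A match of 4 letters is a description and not a site of cleavage.

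Few exact positions recurred, as placed in the deposit and with rows flagged for mapping quality kept. The 1795 junctions lay at 1406 positions, of which 146 were found in more than 1 library and 18 in 3 or more, and in the tail 11 of 255 positions were found in more than 1 library. The most shared was 114576789, in the last kb of the core, with 1 junction in each of 4 libraries (Shld1-/- 2, Shld1-/- 3, Xlf-/- 2 and Xlf-/- 3) of 3 printed genotypes. Next came 114573429 and 114574543 (5 junctions in 3 libraries each), and 114574450 and 114574988 (4 junctions in 3 libraries each). The MH at 114574543 was 8 bp in 4 of its 5 junctions, and the 4 junctions at 114576789 had MHs of 2, 3 and 4 bp and an insertion of 3 bp.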

How the data were processed

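The authors aligned CSR-HTGTS reads to mm9 with Bowtie2 (version not given in the sources used here) in their published pipeline and deposited 1 row per junction, with positions, strands, read coordinates and filter flags and no normalization. Of 15 lists, 10 were used. The 2 lists that hold only MH lengths and the 3 from another strain were not used here. Rows with a flag were kept. MH length is the bait's last minus the prey's first aligned read base, plus 1, negative values being insertions, which MH shares leave out. The core limits, from the study's plots, the members and the lists were chosen with earlier results of these data known. Depth was 1159 to 8110 Igh junctions (114450000 to 114699999), so that 3 junctions are 1.05% to 3.37% of a library's members. Libraries were grouped by label, with printed genotypes, left-out libraries, flags, collapsing, core edge, tail limit, insertions and MH length as alternatives. Named bins were the fullest and emptiest of the core, the fullest upstream and any upstream bin filled in 8 libraries, and named positions the 5 in the most libraries, then with the most junctions. Further bins were named after their values were seen. Exact permutation and sign-flip tests were Benjamini-Hochberg adjusted (threshold 0.05). Counting, tested on simulated junctions, and the tests used pandas 2.3.3 and numpy 2.4.6 in Python 3.11.15, and Wilson intervals scipy 1.17.1. P-values measure the spread between libraries.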

Additional observations from a re-analysis of the deposited data

Results flagged for a closer look

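Inversional junctions within 7 kb downstream of core Sγ1, outside the regions described above, exceeded the highest upper Wilson limit among libraries labelled WT (0.927% of Igh junctions, WT 2) in 4 libraries. They were 1.18% (34 of 2883) of Igh junctions in Shld1-/- 3, 1.03% (26 of 2532) in Shld1-/- Xlf-/- 1, 1.29% (15 of 1159) in Shld1-/- Xlf-/- 3 and 1.44% (35 of 2424) in Xlf-/- 2, all printed as lacking SHLD1. WT 2, also printed as lacking SHLD1, had 0.519% (11 of 2120). In libraries printed as Xlf-/- they were 0.321% (7 of 2181, WT 3) and 0.353% (13 of 3684, Xlf-/- 1). In libraries printed as WT they were 0 of 4109, which allows a share of up to 0.0730%, 2 of 7533 and 3 of 8110.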

How the results depend on the processing

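The tests by genotype pair no libraries, since the replicate numbers follow the order of deposit within a label. The labels do not say whether each run of the printed genotypes in that order is 1 repeat of the experiment. Such runs were not used as blocks, and whether blocking would change the effects was not tested. The tests by printed genotype combined with each other alternative were added after the data were seen. With printed genotypes in place of labels, 7 of the 12 effects passed that had not: on the core inversion share (23.0 for SHLD1, 8.38 for XLF), the upstream share (18.9 and 5.90), direct joins (-14.1 and -10.1) and long MHs (16.7, SHLD1), and the XLF effect on insertions was turned (-0.964 points). With labels, no other alternative made an effect pass, and the XLF effect on long MHs was -3.41 with MHs of more than 5 bp. Leaving out each library, no effect by label passed, and those that kept their direction ranged, for SHLD1, over 6.05 to 19.1 (core inversion share), 0.855 to 3.67 (per 100 Igh junctions), 0.723 to 8.69 (upstream share) and 1.67 to 11.4 (long MHs), and for XLF over 5.77 to 18.8, 1.40 to 4.22 and 1.81 to 9.78 (same order) and -14.4 to -1.93 (direct joins). It turned the effects by label on direct joins (SHLD1, -6.87 to 5.65), long MHs (XLF, -3.27 to 6.51) and insertions (SHLD1 -2.39 to 0.736, XLF -0.796 to 2.33).
By printed genotype, the upstream share's XLF effect no longer passed without duplicate-flagged rows (5.80), without mapping-quality-flagged rows (5.95) and with the core edge 1 kb lower (4.16), nor did the SHLD1 effect on direct joins without mapping-quality-flagged rows (-12.4) or on long MHs above 5 bp (3.25), and the XLF effect on the latter was turned (-1.05). Leaving out each library, the SHLD1 effects were 20.5 to 25.6 (core inversion share), 2.5 to 4.33 (per 100 Igh junctions), 17.9 to 19.997 (upstream share), -16.0 to -12.2 (direct joins), 14.6 to 18.8 (long MHs) and -3.76 to -1.62 (insertions), and the XLF effects 5.83 to 10.9 (core inversion share), 4.84 to 6.96 (upstream share), -12.1 to -8.20 (direct joins), 0.990 to 2.82 (per 100 Igh junctions), 1.90 to 6.19 (long MHs) and -2.06 to 0.0864 (insertions). Without Shld1-/- Xlf-/- 3 or without Xlf-/- 2, no effect by printed genotype passed (exact permutation test, lowest adjusted p 0.0667 and 0.05). Leaving out a library also leaves fewer permutations, which raises the smallest p that an XLF effect can reach here. The effects themselves stayed within the ranges above. The XLF effects on core inversion and upstream share were also lost without any 1 library printed as WT, and the SHLD1 effect on long MHs without Xlf-/- 1. The SHLD1 effect per 100 Igh junctions passed without Shld1-/- Xlf-/- 1 or Xlf-/- 1, and that on insertions without Shld1-/- Xlf-/- 1.
Within libraries, the lower direct joins of inversional core junctions lost the call without duplicate-flagged rows (-5.35), without mapping-quality-flagged rows (-5.12), with identical junctions collapsed (-5.14) and with insertions in the denominator (-4.47), and ranged from -6.64 to -4.61 with each library left out, passing only without Shld1-/- 2. With the core edge 1 kb lower, the long-MH excess upstream was 5.29 and passed, and the tail comparison was turned to 15.0. With the edge 1 kb higher they were 7.76 and -7.22, and neither passed. Long MHs of inversional against deletional core junctions were -4.83 with MHs of more than 5 bp and -0.799 to 3.06 with each library left out, and the tail comparison -1.41 to 0.734. Where no cause is named, the cause was not tested. Upstream shares rest on 5 to 13 tail junctions in the libraries printed as WT and on 9 in WT 3.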
